A study of Mus musculus with 2 samples.

Results

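The miR-99/100 and miR-125 microRNA (miRNA) genes of the mouse lie in 3 groups, each on 1 shared transcript together with a let-7 gene. They were chosen by name: Mir99a with Mir125b-2 on Mir99ahg, Mir100 with Mir125b-1 on Mir100hg, and Mir99b with Mir125a in Spaca6. These are 6 of the 1973 gene entries counted in the deposited tables. The tables come from small RNA sequencing of heart from B6NCrl mouse embryos at 14.5 days of development. There is 1 group of 2 libraries, numbered as biological replicates, with no treatment, mutant or control among them, so no comparison between groups was possible and no p-value is given. Each library is described as the heart of 1 pup, whereas the entry for sex names both sexes pooled. The labels name no allele or transgene, give both libraries the same donor identifier, and record collection on different days.

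A miRNA gene is transcribed as a longer primary transcript, from which a hairpin is cut and then trimmed to a short mature strand, the 5p or 3p arm. The mature strand finds its messenger RNA targets mainly through its seed, bases 2 to 8 from the 5′ end. The miR-125 family is the vertebrate counterpart of the worm miRNA lin-4, and its place beside let-7 on a common transcript is conserved from flies to mammals. Both families are best known as timers of development. LIN28 binds let-7 precursors and blocks their maturation in immature cells. The miR-99/100 family is known for lowering mTOR and the insulin-like growth factor receptor.

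The 5p sequences show which genes a read can be assigned to, and are given from RefSeq for mouse build GRCm38.p6, with the seed in capitals. All 6 genes matched an entry for their mature arms. The first 3 are the miR-99/100 arms, which share the seed ACCCGUA.
miR-99a-5p: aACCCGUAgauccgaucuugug
miR-100-5p: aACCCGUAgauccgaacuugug
miR-99b-5p: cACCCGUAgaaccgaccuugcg
Among all RefSeq mature sequences, these 3 were the only ones with that seed. Counted from the 5′ end, miR-99a and miR-100 differ at 1 base (U16A), while miR-99a and miR-99b differ at 4 (A1C, U11A, U16C and U21C). All of these lie outside the seed.

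The miR-125 arms share the seed CCCUGAG. Mir125b-1 and Mir125b-2 make an identical 5p arm, so the 3 genes give 2 different sequences. The arm of Mir351, from a gene outside the shared transcripts, is set beside them because it carries the same seed.
miR-125b-5p: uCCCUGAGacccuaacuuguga
miR-125a-5p: uCCCUGAGacccuuuaaccuguga
miR-351-5p: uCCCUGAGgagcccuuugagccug
The arms of miR-125b and miR-125a are the same over their first 13 bases and lie 3 edits apart (single-base changes, insertions or deletions). Those of miR-125b and miR-351 are the same over the first 8 bases only. The 3p arms do separate Mir125b-1 from Mir125b-2, matching at 17 of 22 positions.
miR-125b-1-3p: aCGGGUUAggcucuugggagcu
miR-125b-2-3p: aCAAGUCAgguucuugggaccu
The counts are per gene and do not tell the 5p from the 3p arm of a hairpin.

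On build mm10 all 6 genes are read from the plus strand. Mir99a lies at chr16:77598936-77599000 in an intron of Mir99ahg, with the antisense gene Gm11146 across it. Mirlet7c-1 starts 721 bp after the start of Mir99a, and Mir125b-2 (chr16:77646273-77646343) starts 47337 bp after it, in an intron of Mir99ahg and an exon of C130023A14Rik. On chromosome 9, Mir100 (chr9:41531425-41531504) and Mir125b-1 (chr9:41581926-41582002) lie in introns of 3110039I08Rik, the annotation's name for Mir100hg, and of Gm49317. Mirlet7a-2 starts 5291 bp after Mir100, and Mir125b-1 starts 50501 bp after it and falls in an exon of Gm28119. Mir100 faces an exon of Gm48742 on the minus strand. The Spaca6 group is compact: Mir99b (chr17:17830188-17830257) is followed by Mirlet7e at 164 bp and by Mir125a (chr17:17830812-17830879) at 624 bp. Mir99b is intronic, and Mir125a lies in an exon of 1 of the 3 Spaca6 transcripts that span it. For each of the 6 genes, 0 reads fell on the opposite strand in both libraries.

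**Figure D1:**
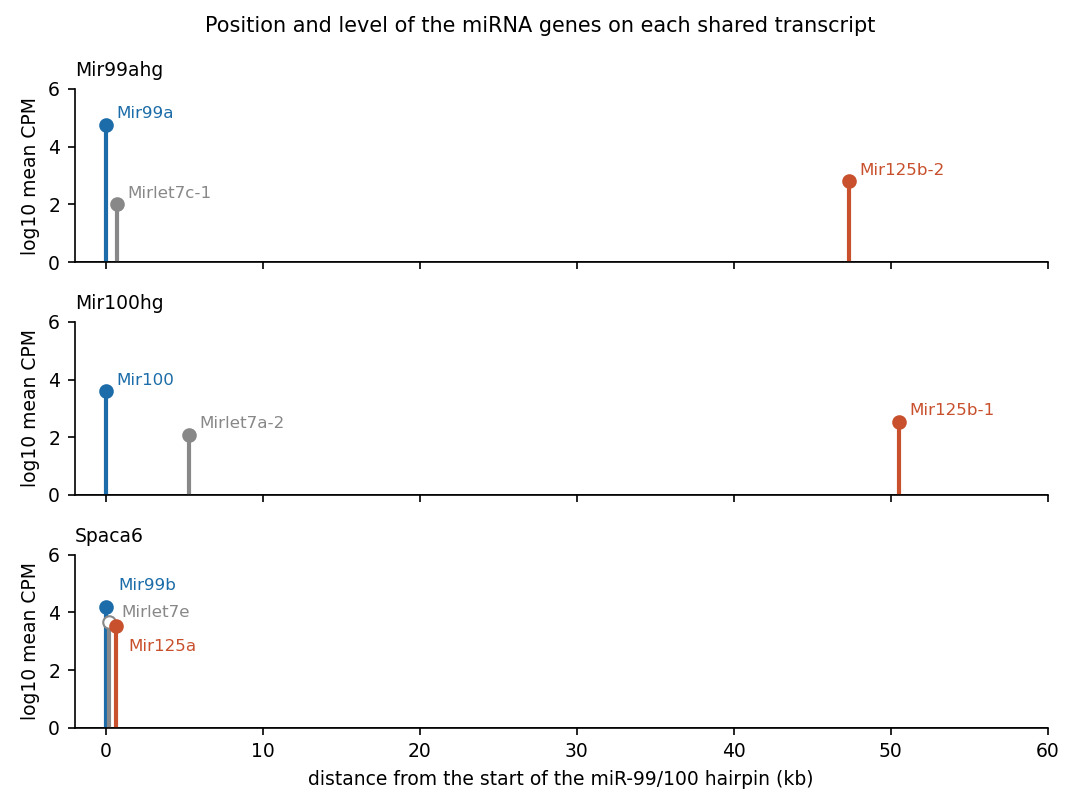
Position and level of the miRNA genes on each shared transcript. The horizontal axis is the distance in kb from the start of the miR-99/100 hairpin, and the height of each line is log10 of the mean CPM of both libraries. Blue marks miR-99/100, grey let-7 and orange miR-125, and the open circle is let-7e, counted from reads facing the entry Gm25927. On Mir99ahg and Mir100hg the miR-125b gene starts 47.3 and 50.5 kb after the miR-99/100 gene, and in Spaca6 all 3 genes fall within 1 kb.

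Replicate 1 held 4327424 reads on miRNA genes of the counted strand and replicate 2 held 3839984, out of 8150499 and 7269505 reads in all. Levels are in CPM, counts scaled to the library's total of those gene reads, and 3 counts equal 0.693 and 0.781 CPM. A further 30.6% and 30.1% of all reads mapped to several places and belong to no gene count. Detection required 10 or more counts in both libraries, a level that 17.1% of all entries reached (337 of 1973) and that 6 of 6 members reached. Of the cell type markers, the heart muscle miRNAs Mir208a, Mir208b and Mir499 summed to 75752 and 79354 CPM, and the liver miRNA Mir122 was at 38.4 and 44.5 CPM. The 5 measured genes of the brain miRNAs miR-124 and miR-9 were at 0 in both libraries, which says nothing of their level, since these miRNAs are made by near-identical copies and reads mapping to several places are not counted. Reads had no molecular identifiers, so all intervals cover counting error only, and the spread between the libraries may be technical as well as biological. In bulk tissue, fewer cells of a type and less RNA per cell cannot be told apart.

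The 6 genes held 8.21% ± 0.145 (SD, n = 2) of all assigned reads, or 81053 CPM in replicate 1 and 83097 in replicate 2. Nearly all of it was miR-99/100, whose 3 genes summed to 76237 and 78875 CPM. The 3 miR-125 genes summed to 4816 and 4222 CPM. Taken within each library, where no scaling is needed, miR-99/100 exceeded miR-125 by 15.8-fold and 18.7-fold (17.3 ± 2.02). Reads of the miR-125b 5p arm that map to both of its hairpins are missing from the miR-125 sum, in a number that is not given. With them the ratio would be lower by an unknown amount, and whether miR-99/100 would still exceed miR-125 cannot be told. By transcript, the Mir99ahg genes made up 71.1% ± 1.48 of the 6-gene sum, the Spaca6 genes 23.6% ± 1.85 and the Mir100hg genes 5.38% ± 0.368. The 3 transcript shares did not overlap between libraries.

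Mir99a was the highest of the 6, with 242971 and 227379 counts in replicates 1 and 2. These correspond to 56147 and 59214 CPM (57680 ± 2169), rank 6 among all 1973 entries. It alone supplied 70.3% ± 1.40 of the reads of the 6 genes and 74.4% ± 1.01 of those of miR-99/100. Its nearest neighbours in level were Mir208b, a miRNA of the slow myosin gene, at 66314 and 66822 CPM, and Mirlet7g at 43488 and 39444. Mir99a stood below Mir208b and above Mirlet7g in both libraries.

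Mir99b followed with 70463 and 58916 counts, or 16283 and 15343 CPM (15813 ± 665, rank 16). Mir99a exceeded it by 3.45-fold and 3.86-fold, and their values did not overlap. Mir99b stood below Mir130a (17309 and 18694 CPM) in both libraries. Its order with Mir30a, at 16431 and 13549 CPM, turned over between them.

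Mir100, which differs from Mir99a in its 5p arm by the 1 substitution given above, had 16476 and 16583 counts, or 3807 and 4319 CPM (4063 ± 361, rank 32). Mir99a stood 14.7-fold and 13.7-fold above it. Mir127, the gene nearest to it in mean level, had 16498 and 16530 counts, and the order of both genes turned over between libraries. The order with Mir98, a let-7 family gene at 4501 and 3875 CPM, turned over as well.

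Mir125a had the most counted reads of the miR-125 genes, with 16768 and 12100 counts, or 3875 and 3151 CPM (3513 ± 512, rank 36). It supplied 77.5% ± 4.12 of the counted miR-125 reads, a share and order that are uncertain because reads common to both miR-125b genes are not counted. Its range overlapped that of Mir100: Mir100 was 0.983 times Mir125a in replicate 1 and 1.37 times in replicate 2, so these neighbours were not separated. Its order with both of its neighbours in level, Mir214 at 3537 and 3704 CPM and Mir130b at 3585 and 3241, also turned over.

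Both miR-125b genes were lower in counted reads. Mir125b-2 had 2605 and 2715 counts, or 602 and 707 CPM (655 ± 74.3, rank 93), 14.6% ± 3.0 of the counted miR-125 reads. Mir125b-1 had 1466 and 1398 counts, or 339 and 364 CPM (351 ± 17.9, rank 112), 7.83% ± 1.12 of the counted miR-125 reads. Mir125a exceeded Mir125b-2 by 6.44-fold and 4.46-fold, and Mir125b-2 exceeded Mir125b-1 by 1.78-fold and 1.94-fold, with no overlap. The range of Mir125b-2 overlapped those of its neighbours in level, Mir467d (639 and 708 CPM) and Mir434 (578 and 680). Mir125b-2 stood below Mir467d and above Mir434 in both libraries, but in replicate 2 it had 2715 counts against 2717 for Mir467d. Mir125b-1 likewise overlapped Mir500 (346 and 388 CPM) and Mir16-2 (379 and 323). It stood below Mir500 in both libraries, and its order with Mir16-2 turned over.

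The order of mean counted levels was therefore Mir99a, Mir99b, Mir100 with Mir125a, Mir125b-2 and Mir125b-1. The places of Mir125b-2 and Mir125b-1 are uncertain, since reads common to both are not counted. The levels are not divided by length, since the hairpins are of similar size, 65 to 80 bp, a largest ratio of 1.23. Per base of hairpin the other 4 steps kept their order in both libraries, and Mir100 was 0.835 and 1.16 times Mir125a.

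**Figure D2:**
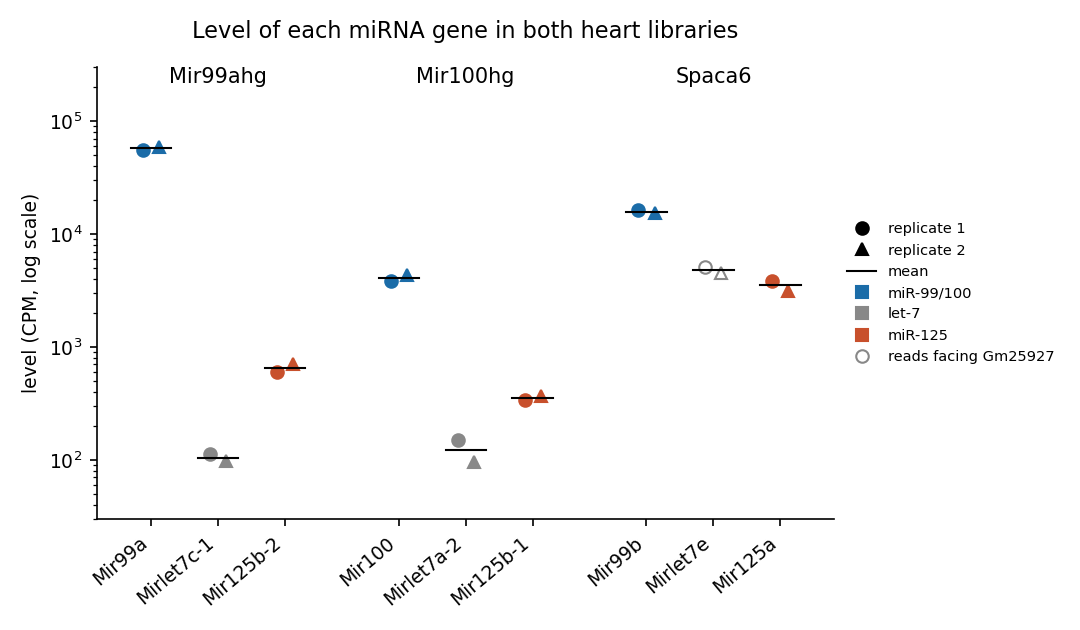
Level of each miRNA gene in both heart libraries. The vertical axis is CPM on a log scale, circles are replicate 1, triangles replicate 2 and the bar their mean, with genes grouped by shared transcript in their order along it. In counted reads the miR-99/100 gene (blue) is the highest of each group. The let-7 gene (grey) is the lowest on Mir99ahg and Mir100hg, and stands above miR-125 in Spaca6, where let-7e is counted from reads facing Gm25927 (open symbols). On Mir99ahg and Mir100hg the miR-125b and let-7 arms lie in 2 hairpins each, so their places are uncertain, whereas all arms of Spaca6 lie in 1.

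In counted reads the miR-99/100 gene of each transcript stood above the miR-125 gene in both libraries, by different factors. Reads of the miR-125b 5p arm that map to both of its hairpins are not counted. On Mir99ahg and Mir100hg the order itself is therefore uncertain, not only the factor. On Mir99ahg, Mir99a exceeded Mir125b-2 by 93.3-fold and 83.7-fold (88.5 ± 6.73). On Mir100hg, Mir100 exceeded Mir125b-1 by 11.2-fold and 11.9-fold (11.6 ± 0.441). In Spaca6, Mir99b exceeded Mir125a by 4.2-fold and 4.87-fold (4.54 ± 0.472). The 3 ratios of counted reads did not overlap. On the log2(CPM + 1) scale the differences were 6.46 ± 0.11, 3.53 ± 0.06 and 2.18 ± 0.15.

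The let-7 gene of each transcript was compared in the same way. Mirlet7c-1, on Mir99ahg, had 484 and 372 counts, or 112 and 96.9 CPM (104 ± 10.6). Mir99a exceeded it by 502-fold and 611-fold, and Mir125b-2 by 5.38-fold and 7.30-fold. Of the counted levels on Mir99ahg, let-7 was the lowest. The Mir99a arm lies in 1 hairpin and those of Mir125b-2 and Mirlet7c-1 in 2 each, so these folds are uncertain, as are those on Mir100hg, whereas all arms of Spaca6 lie in 1 hairpin.

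On Mir100hg, Mirlet7a-2 had 644 and 368 counts, or 149 and 95.8 CPM (122 ± 37.5). Mir100 exceeded it by 25.6-fold and 45.1-fold, and Mir125b-1 by 2.28-fold and 3.80-fold. Both ratios were higher in replicate 2 than in replicate 1. The order in counted reads, miR-100 above miR-125b above let-7, was the same in both libraries.

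For Spaca6 no entry is named Mirlet7e. The tables list at its place Gm25927, an annotated gene on the minus strand (chr17:17830343-17830459) that covers the plus-strand Mirlet7e hairpin at chr17:17830352-17830444. That entry had 0 counts on its own strand, and 22107 and 17347 reads on the strand of let-7e. These reads, picked out after their values were seen, made up 10.3% and 9.42% of all gene reads on the uncounted strand. Scaled like the other genes they came to 5109 and 4517 CPM (4813 ± 418), below Mir99b by 3.19-fold and 3.40-fold and above Mir125a by 1.32-fold and 1.43-fold. With them, the 3 genes of Spaca6 summed to 25266 and 23011 CPM. Let-7e-5p begins with the let-7 seed, GAGGUAG, as do let-7c-5p and let-7a-5p of the other transcripts.
let-7e-5p: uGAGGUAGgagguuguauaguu
let-7c-5p: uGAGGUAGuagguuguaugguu
let-7a-5p: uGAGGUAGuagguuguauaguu

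The 12 listed let-7 genes with an entry summed to 106626 and 92536 CPM, so the 6 members came to 0.760 and 0.898 times that sum. It leaves out the let-7e reads and Mirlet7f-1, which has no entry. Reads mapping to several places are missing from both sides, so the ratio is uncertain. Of 14 let-7 genes listed, 11 were detected. Most of their counted reads came from genes on other transcripts, Mirlet7g (43488 and 39444 CPM), Mirlet7i (40445 and 34625) and Mirlet7d (14233 and 11456). Neither Mirlet7c-1 nor Mirlet7a-2 exceeded 149 CPM in either library, and both make an arm that another let-7 gene makes too.

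That identity of arms bears on what the tables can count, since reads that map to several places are outside the gene counts. Each arm was searched in 2198 annotated hairpin loci. The 5p arms of Mir99a, Mir99b, Mir100 and Mir125a were each found in 1 hairpin, and these genes had mean levels of 3513 to 57680 CPM. The shared 5p arm of Mir125b-1 and Mir125b-2 was found in 2 hairpins, and these genes had 351 and 655 CPM. Among let-7 genes, let-7e included, the 8 with an arm in 1 hairpin had a median of 4501 CPM (0 to 41466), and the 5 with an arm in 2 hairpins had a median of 104 (51.4 to 1145). The part of shared arms in the lower levels was not tested. Levels of Mir125b-1, Mir125b-2, Mirlet7c-1, Mirlet7a-2, Mirlet7a-1, Mirlet7c-2 and Mirlet7f-2 are uncertain for this reason.

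RefSeq hairpins matched 4 of the 6 genes, Mir99a, Mir100, Mir125a and Mir125b-1. The hairpin of Mir125b-1 (chr9:41581926-41582002, plus strand) shows how far the overlap reaches, with bases that lie in a stretch of at least 20 shared with another hairpin in capitals.
Mir125b-1: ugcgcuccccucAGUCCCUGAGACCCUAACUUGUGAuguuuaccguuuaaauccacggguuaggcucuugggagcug
The shared stretch is 24 bases long and covers the 5p arm, so 5 of 58 windows of 20 bases (8.62%) were not particular to this gene. The 3p arm lies outside it. The hairpins of Mir99a, Mir100 and Mir125a shared 0 windows of 20 bases, and their longest stretches shared with any other hairpin were 16, 16 and 14 bases.

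**Figure D3:**
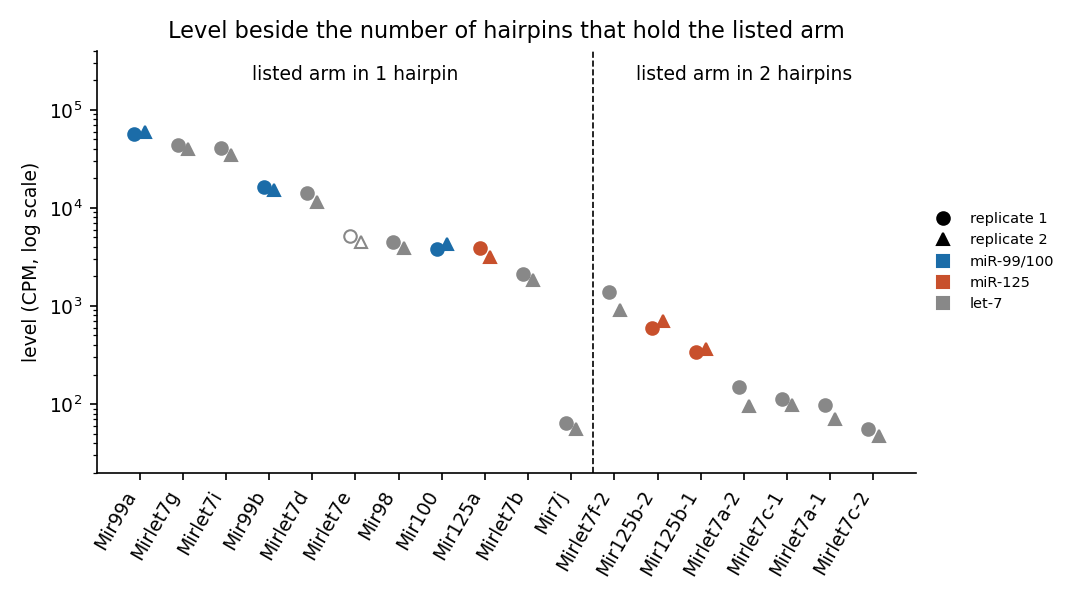
Level beside the number of hairpins that hold the listed arm. The vertical axis is CPM on a log scale, circles are replicate 1, triangles replicate 2, and colours mark miR-99/100 (blue), miR-125 (orange) and let-7 (grey, open for let-7e counted from reads facing Gm25927). Mir7k, at 0 in both libraries, cannot be drawn on a log axis. Left of the dashed line are 11 of the 12 genes with the arm in 1 hairpin, and right of it the 7 genes with the arm in 2, all of them at or below a mean of 1145 CPM.

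The seed shared by other genes adds context to the miR-125 sum. Besides the 3 miR-125 genes, Mir351, Mir6394 and Mir6367 have the seed CCCUGAG, and the last 2 were at 0 in both libraries. Mir351, a gene of the Mir322 cluster on the X chromosome, had 117635 and 77987 counts, or 27184 and 20309 CPM (23746 ± 4861). It exceeded the sum of the 3 miR-125 genes by 5.64-fold and 4.81-fold, and made up 83.9% ± 1.53 of counted reads from the miR-125 genes and Mir351 together. The Mir351 arm lies in 1 hairpin, so the reads missing from both miR-125b genes would lower this fold and share. No such gene adds to the miR-99/100 seed. Mir10a and Mir10b, listed as relatives of miR-99/100 without a search for the nearest sequences, have a different seed (ACCCUGU). The arm miR-10a-5p lies 3 edits from miR-100-5p.
miR-10a-5p: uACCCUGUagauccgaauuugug
Mir10a had 982 and 1503 CPM and Mir10b 965 and 703, and the 3 miR-99/100 genes exceeded their sum by 39.2-fold and 35.8-fold.

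The libraries were then compared with each other. Of the 337 detected genes, 37 differed by more than 1.5-fold on the log2(CPM + 1) scale (11%), and 0 of the 6 members did. The members' median absolute difference was 0.14 on the log2 scale, against 0.22 over all 337 genes. Level bears on that: among the 112 genes at least as abundant as Mir125b-1, 5 passed 1.5-fold and the median absolute difference was 0.17, so a count of 0 among 6 is near the background and not a result about the members. The spread over all detected genes, as a biological coefficient of variation, was 19.8%.

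In direction, 4 of 6 members were higher in replicate 2, where 59.6% of all detected genes were higher, and 2 were lower, where 40.4% were lower. Mir125b-2 was 1.17-fold higher (95% counting interval 1.11 to 1.24) and Mir100 1.13-fold higher (1.11 to 1.16). Mir99b was 1.06-fold lower (1.05 to 1.07) and Mir125a 1.23-fold lower (1.20 to 1.26). These 4 kept their direction under all 6 scalings tried: CPM as given, CPM from the unstranded column or without the most abundant gene, TMM, median-of-ratios, and centring on the median gene. A scaling moves all ratios by nearly the same amount, and the median of all genes shifted by -0.11 to 0.0029. No shift was large enough in the needed direction to turn these 4, so the kept direction followed from their size and is no separate evidence. Mir99a was 1.05-fold higher (1.05 to 1.06), but stood at -0.04 on the log2 scale with median-of-ratios scaling and at -0.0011 relative to the median gene. Mir125b-1 was 1.07-fold higher with an interval that includes no difference (0.998 to 1.16), and stood at -0.01 with median-of-ratios scaling.

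Median-of-ratios scaling moved the median of all genes by -0.11 on the log2 scale, and the share of genes higher in replicate 2 from 59.6% to 44.5%. With ratios taken relative to the median of all genes that share was 49.9%, and 3 members stood above the median and 3 below it. Relative to the median, Mir125b-2 was at 0.15, Mir100 at 0.10 and Mir125b-1 at 0.03, and Mir99b was at -0.16 and Mir125a at -0.38. Both members in Spaca6 were lower in replicate 2 by CPM, and no scaling tried shifted ratios upward enough to change that. Those of the other transcripts were higher or, for Mir99a and Mir125b-1, changed sign with the scaling. The let-7e reads facing Gm25927, also from Spaca6, were 1.13-fold lower in replicate 2 (1.11 to 1.15). All 11 detected let-7 genes, which lie outside Spaca6, were lower by CPM as well, so this is not particular to Spaca6.

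All 11 detected let-7 genes were lower in replicate 2 by CPM, beside 40.4% of all detected genes. The let-7 genes lay at -0.63 to -0.14 on the log2 scale, with a median of -0.22. They were lower under each of the 6 scalings, none of which could turn genes this far below 0. By CPM 1 of these 11 genes, Mirlet7a-2, passed 1.5-fold, beside 11% of all detected genes. Mirlet7f-2 lay just short of it, 1.496-fold lower, so that count depends on the scaling. The transcript neighbours of Mirlet7a-2, Mir100 and Mir125b-1, were higher by CPM (Mir125b-1 not so with median-of-ratios scaling). Mirlet7c-1 differed by -0.21, beside 0.08 for Mir99a and 0.23 for Mir125b-2 on the same transcript (-0.04 for Mir99a with median-of-ratios scaling). Of the other markers, the blood miRNAs summed to 1436 and 706 CPM, with Mir451a at 1090 and 415 and Mir223 at 345 and 290. The third blood miRNA listed, Mir142, has no entry. The epithelial miRNA Mir205 was at 11.8 and 93.8 CPM, and the pancreas miRNA Mir375 at 11.3 and 23.2. The smooth muscle miRNAs summed to 64494 and 87098, and the endothelial miRNA Mir126a was at 69932 and 75015. All these are marker levels. The part of these cell types in the differences between libraries was not tested.

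**Figure D4:**
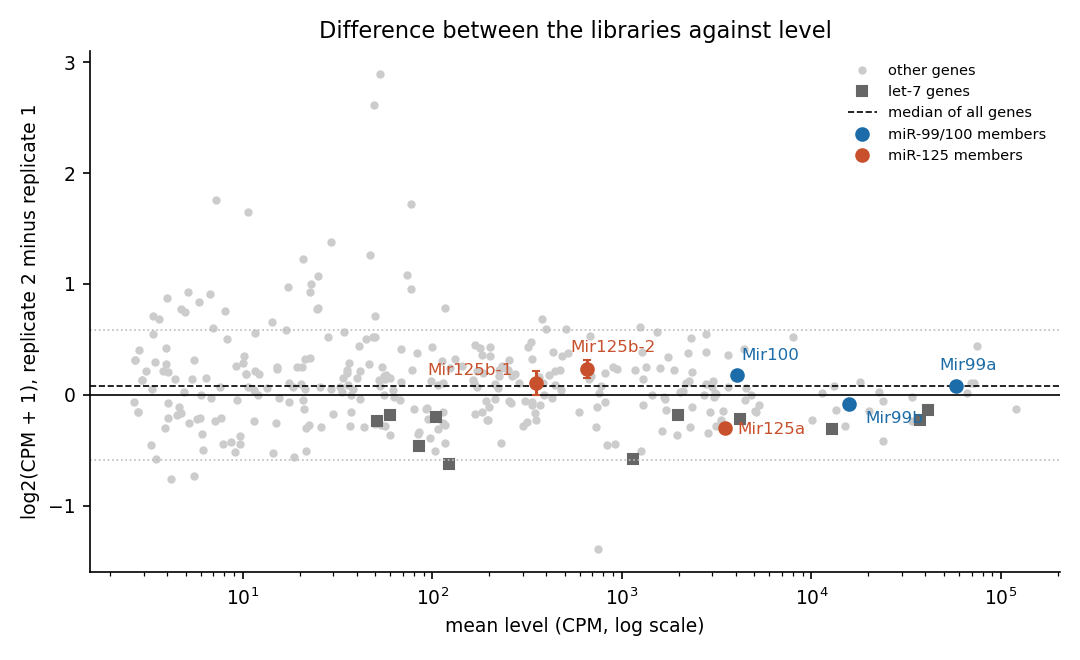
Difference between the libraries against level. Each point is 1 of 337 detected genes, with mean CPM on a log axis and log2(CPM + 1) of replicate 2 minus replicate 1 on the vertical axis, and bars on the members are 95% counting intervals. Dotted lines mark 1.5-fold and the dashed line the median of all genes (0.08). The 6 members lie between -0.30 and 0.23, and all let-7 genes (squares) lie below 0. With median-of-ratios scaling Mir99a (-0.04) and Mir125b-1 (-0.01) also fell below 0.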

How the data were processed

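The 2 small RNA libraries of embryonic mouse heart were analysed from the whole-number read counts per gene that the authors deposited, 1 table per library, not normalized. Per the deposited descriptions they refer to mm10 and GENCODE M4, and aligner and counter were not given in the sources used here. The strand column with the larger total was used (95.3% and 95.4% of gene reads). Lines naming no gene were left out of totals, among them the reads mapping to several places (30.6% and 30.1%). Symbols and positions came from GENCODE M21, which named 1894 of 1973 entries, and sequences from RefSeq. No genome sequence was searched.

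CPM, ratios and intervals were computed with scipy 1.17.1, pandas 2.3.3 and numpy 2.4.6 under Python 3.11.15, with a pseudocount of 1 CPM on the log2 scale and exact binomial intervals (95%) for ratios of counts. Dispersion and TMM factors came from edgeR 4.0.16 and size factors from DESeq2 1.42.0, in R 4.3.3. The steps were checked on simulated data. With 1 group there was no test. Alternatives were the unstranded column, both scalings, a total without the most abundant gene, pseudocounts of 0.1 and 10 CPM, count minimums of 1 and 100 or none, stretches of 18 bases, and each replicate left out. The rule for named genes took all 6 members, the let-7 genes, genes sharing a member's seed, Mir10a and Mir10b, and the genes next above and below each member in mean CPM. Members and lists were chosen with earlier results of these data known. The let-7e reads and the centring on the median gene were added after the values were seen.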

Additional observations from a re-analysis of the deposited data

Results flagged for a closer look

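Reads outside the counted column lay on the let-7e strand of the entry Gm25927, 22107 in replicate 1 and 17347 in replicate 2, both above the 3 counts taken as the limit for a count of 0. They were singled out because no entry is named for Mirlet7e. Of the values above, those given for let-7e use them, as do the totals of both strands behind the unstranded scaling and the strand shares.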

How the results depend on the processing

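No paired analysis was possible because there is only 1 group. Of 175 values recomputed under the alternatives other than leaving out a library, 138 stayed within their limit and 37 moved past it. Many of the 138 could hardly move. Ratios between genes within a library barely depend on the scaling, and a count minimum does not change a member's ratio between libraries. The tally is therefore no measure of how robust the results are. For levels, sums, and differences or ratios between genes, the limit was the spread between libraries. For counts of genes it was a change of 1.5 times. For the count of hairpins and that of members past 1.5-fold it was any change. For each member's ratio between libraries it was the counting interval of that ratio. No difference was called, so no call could reverse, but the sign of the difference between libraries turned for Mir99a (-0.04 with median-of-ratios scaling, -0.0011 relative to the median gene) and Mir125b-1 (-0.01 with median-of-ratios scaling). Of the 6 members, 4 were higher in replicate 2, against 2 with median-of-ratios scaling and 3 relative to the median gene. With the most abundant gene left out of the total, every level rose: the member sum was 93226 CPM, the miR-99/100 sum 88091, the miR-125 sum 5135, Mir99ahg 66254, Mir100hg 5013 and Spaca6 21959. With the unstranded column the member sum was 78261 CPM, the miR-99/100 sum 73952 and Mir99ahg 55624. The count of genes past 1.5-fold was 20 with a pseudocount of 10 CPM, 12 with at least 100 counts and 126 with no count minimum. With at least 1 count in each library 542 genes were detected. Leaving out a library gives the other's own value. The let-7e value and the centring on the median gene were chosen after seeing the data. Reads that map to several places limit every sum, ratio and share that holds Mir125b-1, Mir125b-2, Mirlet7c-1, Mirlet7a-2, Mirlet7a-1, Mirlet7c-2 or Mirlet7f-2. With 2 libraries an SD has 1 degree of freedom.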
